A study of Mus musculus with 16 samples.

Results

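The neuron-enriched miRNAs described here are mmu-miR-128-3p, mmu-miR-129-5p, mmu-miR-129-1-3p, mmu-miR-129-2-3p, mmu-miR-137-3p, mmu-miR-137-5p, mmu-miR-138-5p, mmu-miR-384-5p and mmu-miR-384-3p, written without the mouse prefix from here on. These 9 mature miRNAs of 5 families were chosen by name, as miRNAs known from neurons and made from separate loci, out of the 1881 mature mouse miRNAs on the array. The lateral ventricle (LV) wall, the tissue that lines the fluid-filled cavity of the forebrain, was taken from 8 WT littermates and 8 Dgcr8+/- mice, male mice of a C57BL/6J background at 8 months of age, and the RNA of each mouse was hybridised to 1 array. Dgcr8+/- mice carry 1 inactive copy of *Dgcr8* in all their cells, so no cell type of the wall is singled out by the model, and WT mice carry no inactive copy. The comparison asks which miRNAs depend on the full dose of *Dgcr8* in a tissue that holds neurons beside the ependymal, glial and vascular cells. The mRNA of *Dgcr8* was not analysed here, so the genotype labels were not checked against it.

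Dgcr8 is the RNA-binding partner of the nuclease Drosha, and together they cut the hairpin out of a primary miRNA transcript. Dicer then cuts the hairpin into a 5p and a 3p arm, and the arm that is loaded into an Argonaute protein pairs with target mRNAs mainly through its seed, the bases near its 5′ end. MiR-128 dampens the excitability of neurons, miR-129-5p takes part in the scaling of synapses and represses a potassium channel, miR-137 acts in the maturation of neurons and in synaptic vesicle release, miR-138 limits the size of dendritic spines, and miR-384-5p acts in lasting synaptic potentiation.

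The mature sequences are shown because they tell which of the 9 miRNAs can share targets or probes. Bases 2 to 8, the seed, are in capitals, and the sequences are those of RefSeq on GRCm38.p6, which paired 8 of the 9 names with a mature entry.
miR-128-3p: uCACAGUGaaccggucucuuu
miR-129-5p: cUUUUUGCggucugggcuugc
miR-129-2-3p: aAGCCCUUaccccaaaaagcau
miR-137-3p: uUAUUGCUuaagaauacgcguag
miR-137-5p: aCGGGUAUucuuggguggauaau
miR-138-5p: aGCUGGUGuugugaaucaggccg
miR-384-5p: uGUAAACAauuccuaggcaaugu
miR-384-3p: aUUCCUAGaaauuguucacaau
The 8 sequences carry 8 distinct seeds. MiR-129-1-3p is named only.

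Several of these miRNAs come from more than 1 place in the genome, and their array value then sums the copies. MiR-128-3p is made from Mir128-1 (chr1:128202361-128202430, plus strand), which lies within the bounds of the protein-coding gene *R3hdm1*, and from Mir128-2 (chr9:112118636-112118711, minus strand), which lies within those of *Arpp21*. MiR-129-5p is made from Mir129-1 (chr6:29022619-29022691, plus strand), in no other listed gene, and from Mir129-2 (chr2:94241364-94241453, minus strand), within the bounds of the lncRNA gene *Mir670hg* and overlapping Mir129b on the other strand. MiR-138-5p is made from Mir138-1 (chr9:122682876-122682974, plus strand), in no other listed gene, and from Mir138-2 (chr8:94324311-94324381, plus strand), within the bounds of *Nup93*. Mir137 (chr3:118433857-118433929, plus strand) and Mir384 (chrX:105344282-105344369, minus strand) are single copies outside other listed genes. Whether a hairpin falls in an exon or an intron of its host was not analysed here. The first 19 of the 22 bases of miR-129-2-3p also stand in the Mir129-1 hairpin, so the array values of miR-129-1-3p and miR-129-2-3p may share signal.

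All 9 miRNAs were detected widely in the LV wall. Of these, 8 were detected on all 16 arrays, whereas miR-137-5p was detected in 7 of 8 WT mice and 4 of 8 Dgcr8+/- mice. Each was measured by 30 spots, from 2 probes, or from 4 probes for miR-384-3p. All 9 passed the filter for testing, that is, detection on 8 or more of the 16 arrays of either genotype, as did 495 miRNAs in all. Across the series, 495 to 540 miRNAs were detected in WT mice and 467 to 492 in Dgcr8+/- mice, and the arrays lay on 2 slides, of which slide 1 held 6 WT and 2 Dgcr8+/- arrays and slide 2 held 2 WT and 6 Dgcr8+/- arrays. Dgcr8+/- replicate 2 stood apart, with hybridisation spike-in probes (synthetic RNA added equally to each array) at a log2 signal of 13.1, beside 14.3 to 14.5 for the rest of its genotype, and WT replicate 6 was high at 15.4. Of the markers of the labelled tissue, miR-34b-5p and miR-34c-5p of multiciliated cells and miR-124-3p of neurons were detected on all 16 arrays. MiR-449c-5p of multiciliated cells was detected on none. Of the markers of liver and muscle, listed as tissues that should be absent, miR-122-5p of liver was detected on none. The muscle miRNAs miR-1a-3p and miR-133a-3p were detected on all 16 arrays, and miR-206-3p in 8 WT and 7 Dgcr8+/- mice.

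Set against the rest of the array, the 9 miRNAs differed little between genotypes, whereas all 9 were lower in Dgcr8+/- mice on the signal as scanned. After quantile normalization, which sets the signals of all arrays to 1 common distribution, 1 of the 9 was lower (miR-128-3p) and 1 was higher (miR-138-5p) in the mutants (limma, threshold of 0.05 on p-values adjusted by Benjamini-Hochberg over the 495 miRNAs). Among all 495, 27.9% were lower and 28.3% were higher, and the 9 were not called more often than the array as a whole. The genotypes overlapped for each of the 9, beside 17.2% of the 495 with every Dgcr8+/- mouse below every WT mouse and 7.07% with every one above. Their log2 fold changes (Dgcr8+/- minus WT) had a median of -0.03 and ran from -0.22 to 0.21, beside a median of 0.04 over all 495, whose quartiles were -0.27 and 0.27. With no normalization between arrays, all 9 were lower, as were 59.2% of the 495, and their median log2 fold change was -0.54 beside -0.39 over all 495. In this bulk tissue, fewer neurons and less miRNA per neuron cannot be told apart.

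**Figure D1:**
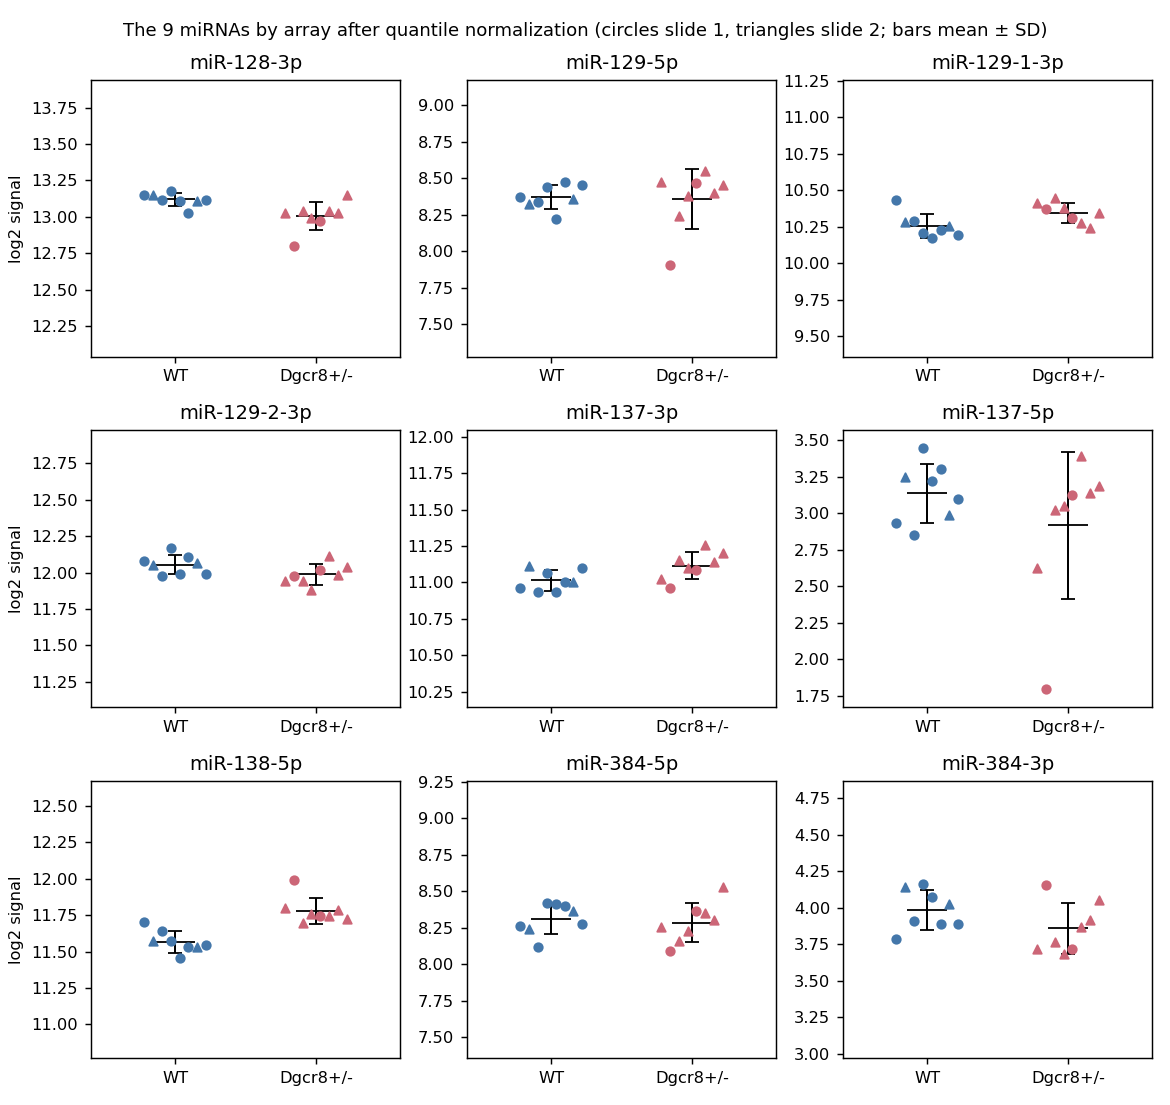
Log2 signal (vertical axis, the same span in each panel) of the 9 miRNAs after quantile normalization, in 8 WT and 8 Dgcr8+/- mice; each point is 1 mouse, circles are slide 1, triangles are slide 2, and black bars give the mean ± SD. The Dgcr8+/- points of miR-138-5p lie above the WT points apart from 1 mouse, and the genotypes overlap in all 9 panels.

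MiR-138-5p had the largest rise of the 9. Its log2 signal ran from 11.45 to 11.70 in WT mice (median 11.56) and from 11.69 to 11.99 in Dgcr8+/- mice (median 11.75). Of the 8 Dgcr8+/- mice, 7 lay above every WT mouse. The WT mean was 11.57 ± 0.08 (SD, n = 8) and the Dgcr8+/- mean 11.78 ± 0.09 (SD, n = 8), giving a log2 fold change of 0.21 (standard error of the difference, SE, 0.05, limma adjusted p = 0.00123), or 1.16-fold relative to the other miRNAs. This direction turned when no normalization was applied between arrays, with a log2 fold change of -0.32, and when arrays were scaled to the labelling spike-in probes, with -0.31 (adjusted p = 0.0516 from limma), and it was 0.04 and not past the threshold when arrays were scaled to the 75th percentile of all probes (adjusted p = 0.657 from limma). The rise was present on both slides, with a difference between means of 0.29 on slide 1 and 0.20 on slide 2, and it was 0.25 with the slide as a block (adjusted p = 0.00112 from limma). Both probes of miR-138-5p showed it, with differences of 0.18 and 0.25.

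The other arms of the miR-138 hairpins differ between the copies, unlike miR-138-5p. They share a run of 9 bases, from base 14 of miR-138-1-3p, so their array values may share signal. The arms are shown because each belongs to Mir138-1 or Mir138-2 alone, with the seed in capitals.
miR-138-1-3p: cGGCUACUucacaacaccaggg
miR-138-2-3p: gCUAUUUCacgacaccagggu
MiR-138-1-3p ran from 6.23 to 6.51 in WT mice (median 6.34) and from 6.34 to 6.70 in Dgcr8+/- mice (median 6.57), and 6 of 8 Dgcr8+/- mice lay above every WT mouse. Its log2 fold change was 0.20 (SE 0.06, limma adjusted p = 0.00899). The difference was 0.37 on slide 2 and -0.0045 on slide 1, and with no normalization between arrays it was -0.26. MiR-138-2-3p had a log2 fold change of 0.01 (SE 0.06, limma adjusted p = 0.870), with WT mice at 5.45 to 5.73 and Dgcr8+/- mice at 5.35 to 5.77. The within-array log2 ratios of the 3 pairs of miR-138 arms were compared after their values were seen (2-sided exact permutation tests, adjusted over the 3 pairs), and their differences depended on the normalization. The ratio of miR-138-1-3p to miR-138-2-3p was 0.19 higher in Dgcr8+/- mice after quantile normalization (exact permutation test, adjusted p = 0.0203), at 0.10 on slide 1 and 0.35 on slide 2, and 0.09 higher and not past the threshold with no normalization between arrays (exact permutation test, adjusted p = 0.229). That of miR-138-5p to miR-138-2-3p was 0.20 higher after quantile normalization (exact permutation test, adjusted p = 0.0203) and differed by 0.03 with no normalization (exact permutation test, adjusted p = 0.487). That of miR-138-5p to miR-138-1-3p differed by 0.01 and -0.06 on these scales (exact permutation test, adjusted p = 0.907 and 0.229), so no unequal change of the miR-138 arms held on both scales. After quantile normalization, the difference of miR-138-5p to miR-138-1-3p went opposite ways on the slides, at 0.30 on slide 1 and -0.17 on slide 2.

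MiR-128-3p had the only called fall of the 9 after quantile normalization, and it was small. Its log2 signal ran from 13.02 to 13.18 in WT mice (median 13.12) and from 12.80 to 13.15 in Dgcr8+/- mice (median 13.03). Of the 8 Dgcr8+/- mice, 3 lay below every WT mouse, and the rest overlapped with the WT range. The WT mean was 13.12 ± 0.05 (SD, n = 8) and the Dgcr8+/- mean 13.01 ± 0.10 (SD, n = 8), giving a log2 fold change of -0.11 (SE 0.04, limma adjusted p = 0.0386). The call was kept in 6 of the 16 fits that each left out 1 mouse, in which the log2 fold change ran from -0.14 to -0.08 and the adjusted p reached 0.0719. It was lost without WT replicate 1, 2, 3, 4, 7 or 8 and without Dgcr8+/- replicate 1, 4, 5 or 7. The log2 fold change was also smaller and not past the threshold with the 75th percentile of detected probes (-0.03, adjusted p = 0.620 from limma), cyclic loess (-0.05, adjusted p = 0.256 from limma) and the total gene signal per miRNA (-0.06, adjusted p = 0.0889 from limma). The difference was -0.23 on slide 1 and -0.08 on slide 2, and -0.16 with the slide as a block (adjusted p = 0.0107 from limma). Its passenger arms miR-128-1-5p and miR-128-2-5p were detected on 0 of 16 arrays.

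The miR-129 family stayed within the spread between mice after quantile normalization. MiR-129-5p ran from 8.22 to 8.48 in WT mice (median 8.37) and from 7.90 to 8.55 in Dgcr8+/- mice (median 8.43), with a log2 fold change of -0.01 (SE 0.08, limma adjusted p = 0.902). The lowest value, 7.90, belonged to Dgcr8+/- replicate 2, and the other 7 Dgcr8+/- mice lay among or above the WT mice. MiR-129-1-3p ran from 10.17 to 10.43 in WT mice (median 10.24) and from 10.24 to 10.44 in Dgcr8+/- mice (median 10.36), with a log2 fold change of 0.09 (SE 0.04, limma adjusted p = 0.0916). It passed the threshold without WT replicate 1, at 0.11 (adjusted p = 0.0282 from limma). MiR-129-2-3p ran from 11.97 to 12.17 in WT mice (median 12.06) and from 11.88 to 12.11 in Dgcr8+/- mice (median 11.98), with a log2 fold change of -0.07 (SE 0.04, limma adjusted p = 0.170). Its 2 probes went opposite ways, with differences of -0.12 and 0.12, so its value rests on how the probes are combined. MiR-129b-5p, from the hairpin on the other strand of Mir129-2, was detected in 7 WT and 6 Dgcr8+/- mice and had a log2 fold change of 0.08 (adjusted p = 0.746 from limma), and miR-129b-3p was detected on none.

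The arms of Mir137 were measured at very different precision. MiR-137-3p, the arm that is loaded into Argonaute, ran from 10.93 to 11.11 in WT mice (median 11.00) and from 10.96 to 11.25 in Dgcr8+/- mice (median 11.12). Above every WT mouse lay 4 Dgcr8+/- mice, and the log2 fold change was 0.10 (SE 0.05, limma adjusted p = 0.0748). Without Dgcr8+/- replicate 2 it was 0.12 and passed the threshold (adjusted p = 0.0148 from limma). The dim passenger arm miR-137-5p ran from 2.85 to 3.45 in WT mice (median 3.16) and from 1.79 to 3.39 in Dgcr8+/- mice (median 3.09), with a log2 fold change of -0.22 (SE 0.18, limma adjusted p = 0.294). Its lowest value was that of Dgcr8+/- replicate 2, and the fit without this mouse gave -0.06.

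The arms of Mir384 did not pass the test either. MiR-384-5p ran from 8.12 to 8.42 in WT mice (median 8.32) and from 8.09 to 8.53 in Dgcr8+/- mice (median 8.28), with a log2 fold change of -0.03 (SE 0.06, limma adjusted p = 0.752). MiR-384-3p ran from 3.78 to 4.16 in WT mice (median 3.97) and from 3.68 to 4.16 in Dgcr8+/- mice (median 3.82), with a log2 fold change of -0.12 (SE 0.08, limma adjusted p = 0.170). Below every WT mouse lay 4 Dgcr8+/- mice, and without Dgcr8+/- replicate 2, at 4.16, the log2 fold change was -0.17 (adjusted p = 0.0408 from limma).

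Of the 8 seeds, only that of miR-384-5p was found in other miRNAs of the array with a RefSeq entry, and these belong to the widely expressed miR-30 family, which can pair with the same sites.
miR-384-5p: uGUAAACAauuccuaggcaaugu
miR-30a-5p: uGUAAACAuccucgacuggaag
miR-30c-5p: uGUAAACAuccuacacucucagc
miR-30e-5p: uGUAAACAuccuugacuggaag
The miRNAs with this seed did not move together after quantile normalization. On that scale miR-30a-5p rose by 0.19 (SE 0.03, limma adjusted p = 0.000295) and miR-30e-5p fell by 0.18 (SE 0.03, limma adjusted p = 0.000155). With no normalization between arrays, 0 of the 495 miRNAs were higher. The sequences of miR-30a-5p and miR-30e-5p are nearly the same, so their array values may share signal. MiR-30c-5p, at 0.05 (adjusted p = 0.198 from limma), and miR-384-5p did not pass the test.

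**Figure D2:**
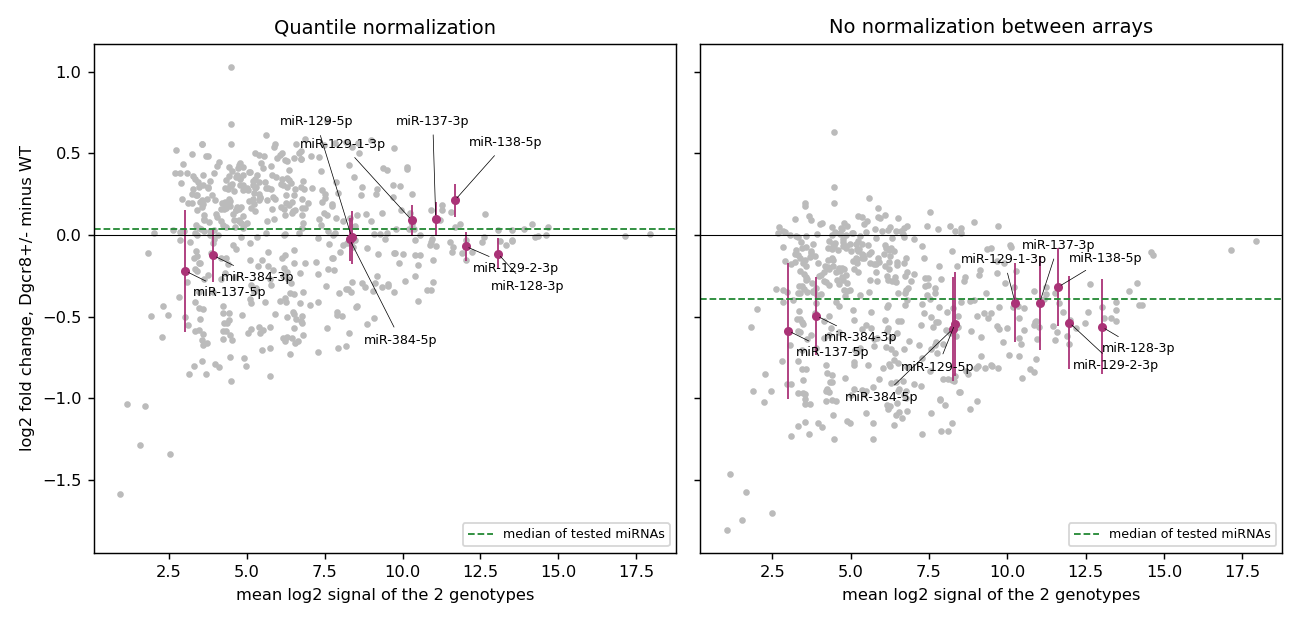
Log2 fold change, Dgcr8+/- minus WT (vertical axis), against the mean log2 signal of the genotypes (horizontal axis) for the 495 tested miRNAs (grey) and the 9 neuron-enriched miRNAs (purple, with 95% confidence intervals from limma), after quantile normalization (left) and with no normalization between arrays (right). The dashed line is the median of the 495, at 0.04 on the left and -0.39 on the right, and the 9 lie between -0.22 and 0.21 on the left and between -0.59 and -0.32 on the right.

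On the signal with no normalization between arrays, each of the 9 miRNAs was lower in Dgcr8+/- mice. The log2 fold change was -0.56 for miR-128-3p, -0.54 for miR-129-5p, -0.41 for miR-129-1-3p and -0.54 for miR-129-2-3p. It was -0.42 for miR-137-3p, -0.59 for miR-137-5p, -0.32 for miR-138-5p, -0.57 for miR-384-5p and -0.49 for miR-384-3p. The highest adjusted p of the 9 was that of miR-138-5p (adjusted p = 0.0213 from limma). Since 293 of the 495 miRNAs were lower and 0 were higher on this scale, a fall here was shared with most of the array. The groups did not overlap for 2 of the 9, miR-129-5p and miR-129-2-3p, beside 27.5% of all 495. MiR-129-5p ran from 8.40 to 8.91 in WT mice (median 8.54) and from 7.08 to 8.39 in Dgcr8+/- mice (median 8.21). MiR-129-2-3p ran from 12.03 to 12.58 in WT mice (median 12.14) and from 11.01 to 12.01 in Dgcr8+/- mice (median 11.80). Dgcr8+/- replicate 2, the array with the dim spike-in probes, held the lowest value for 8 of the 9. Without this mouse, a choice made after the data were seen, all 9 were still lower, with log2 fold changes of -0.50 to -0.25 and a median of -0.40 beside -0.32 over the 495 (highest limma adjusted p = 0.0366, that of miR-138-5p). On this scale alone, the amount of RNA labelled and the array's brightness cannot be told apart from a shared fall in miRNA. With arrays scaled to the labelling spike-in probes, the median log2 fold change of the 495 was -0.38, with 262 lower and 0 higher. Of the 9 miRNAs, 8 were lower after that scaling. Whether the amount of RNA labelled differed between genotypes was not tested.

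**Figure D3:**
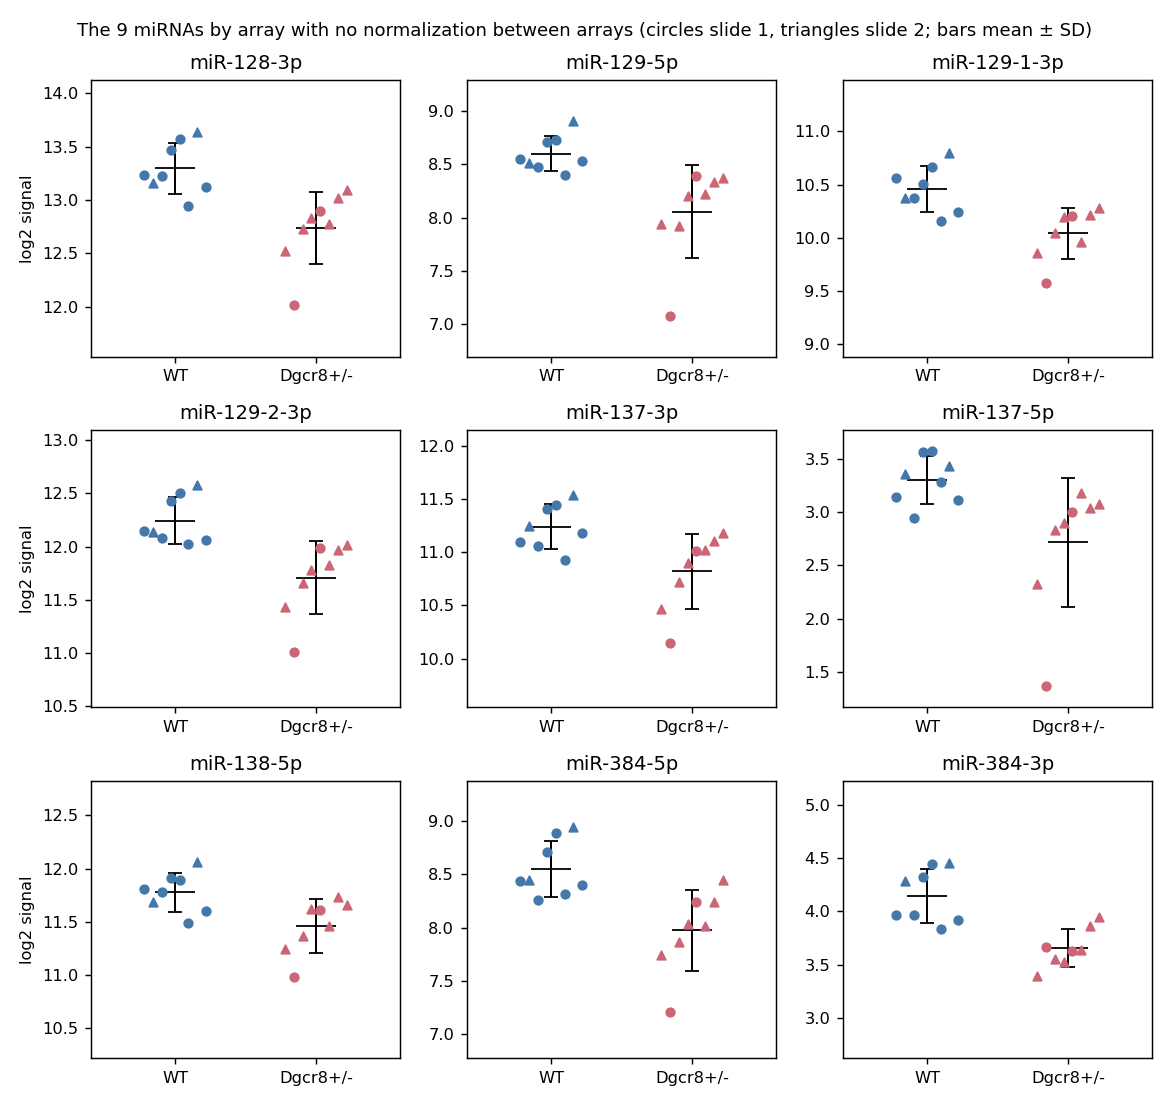
Log2 signal (vertical axis, the same span in each panel) of the 9 miRNAs with no normalization between arrays, in 8 WT and 8 Dgcr8+/- mice; each point is 1 mouse, circles are slide 1, triangles are slide 2, and black bars give the mean ± SD. The Dgcr8+/- mean is below the WT mean in all 9 panels, the lowest point in 8 panels is Dgcr8+/- replicate 2, and the groups are apart for miR-129-5p and miR-129-2-3p.

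Some pairs of these miRNAs changed unequally, and their ratios were apart between genotypes no more often than those of all tested pairs. How often pairs of tested miRNAs in general pass the permutation test below was not analysed here. The log2 ratio of a pair within an array does not depend on a scaling of the whole array, although quantile normalization can alter it. The ratios of the leading arms of the 5 families were compared between genotypes in all 10 pairs (2-sided exact permutation tests over 12870 groupings, adjusted over the 10 pairs). The genotypes differed in 3 pairs. The ratio of miR-128-3p to miR-138-5p ran from 1.45 to 1.66 in WT mice (median 1.58) and from 0.81 to 1.43 in Dgcr8+/- mice (median 1.24). The ratio of miR-128-3p to miR-137-3p ran from 2.02 to 2.19 in WT mice (median 2.11) and from 1.79 to 2.00 in Dgcr8+/- mice (median 1.89). For these 2 of the 10 ratios every Dgcr8+/- mouse lay below every WT mouse, and over all pairs of the 495 miRNAs 23.8% had genotypes apart in either direction. The ratios had differences of -0.33 and -0.22 (exact permutation test, p = 0.000155 for each, the smallest p that 8 mice against 8 allow, adjusted p = 0.000777). On the slides taken separately, the differences were -0.52 and -0.28 for the first ratio and -0.26 and -0.17 for the second. With no normalization between arrays they were -0.24 (adjusted p = 0.00311 from the exact permutation test) and -0.15 (adjusted p = 0.0168 from the exact permutation test). The third pair was miR-129-5p and miR-138-5p, with a difference of -0.23 (exact permutation test, p = 0.00995, adjusted p = 0.0332), and without Dgcr8+/- replicate 2 it was -0.13 and not past the threshold (adjusted p = 0.0606 from the exact permutation test). This call was also lost without WT replicate 4, 5, 6, 7 or 8 or Dgcr8+/- replicate 3. On the total gene signal that Feature Extraction gives per miRNA, the differences were -0.14 for miR-128-3p to miR-137-3p and -0.11 for miR-129-5p to miR-138-5p, neither past the threshold (adjusted p = 0.153 and 0.486 from the exact permutation test).

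The ratio of miR-138-5p to miR-384-5p was 0.24 higher in Dgcr8+/- mice (exact permutation test, p = 0.0204, adjusted p = 0.0509), and that of miR-137-3p to miR-384-5p was 0.13 higher (exact permutation test, p = 0.0432, adjusted p = 0.0864). Both passed the threshold with no normalization between arrays, at 0.26 and 0.16 (adjusted p = 0.0168 for each from the exact permutation test). After quantile normalization the first passed without WT replicate 1, 2 or 3 or without Dgcr8+/- replicate 5 or 8, and the second without WT replicate 2 or Dgcr8+/- replicate 8. The other 5 pairs had adjusted p-values of 0.146 to 0.863. Among the 5 pairs of arms or copies within a family, none differed after adjustment over the 5 (2-sided exact permutation tests), and 2 had an unadjusted p below 0.05. The ratio of miR-129-1-3p to miR-129-2-3p, 3p arms whose array values may share signal, was 0.16 higher in Dgcr8+/- mice (exact permutation test, p = 0.0168, adjusted p = 0.0824), and that of miR-137-5p to miR-137-3p differed by -0.32 (exact permutation test, p = 0.0329, adjusted p = 0.0824). With no normalization between arrays these differences were 0.12 and -0.17 (adjusted p = 0.283 for each from the exact permutation test), and that of miR-384-5p to miR-384-3p was -0.08 in place of 0.10. Without Dgcr8+/- replicate 2, 3 of these pairs passed the threshold: miR-384-5p to miR-384-3p at 0.17, miR-129-5p to miR-129-2-3p at 0.12 and miR-129-1-3p to miR-129-2-3p at 0.15. Without Dgcr8+/- replicate 6 the pairs of miR-129-1-3p and of miR-137-5p with their partners passed, at 0.19 and -0.37, and without WT replicate 1 the pair of miR-129-1-3p and miR-129-2-3p passed, at 0.18.

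**Figure D4:**
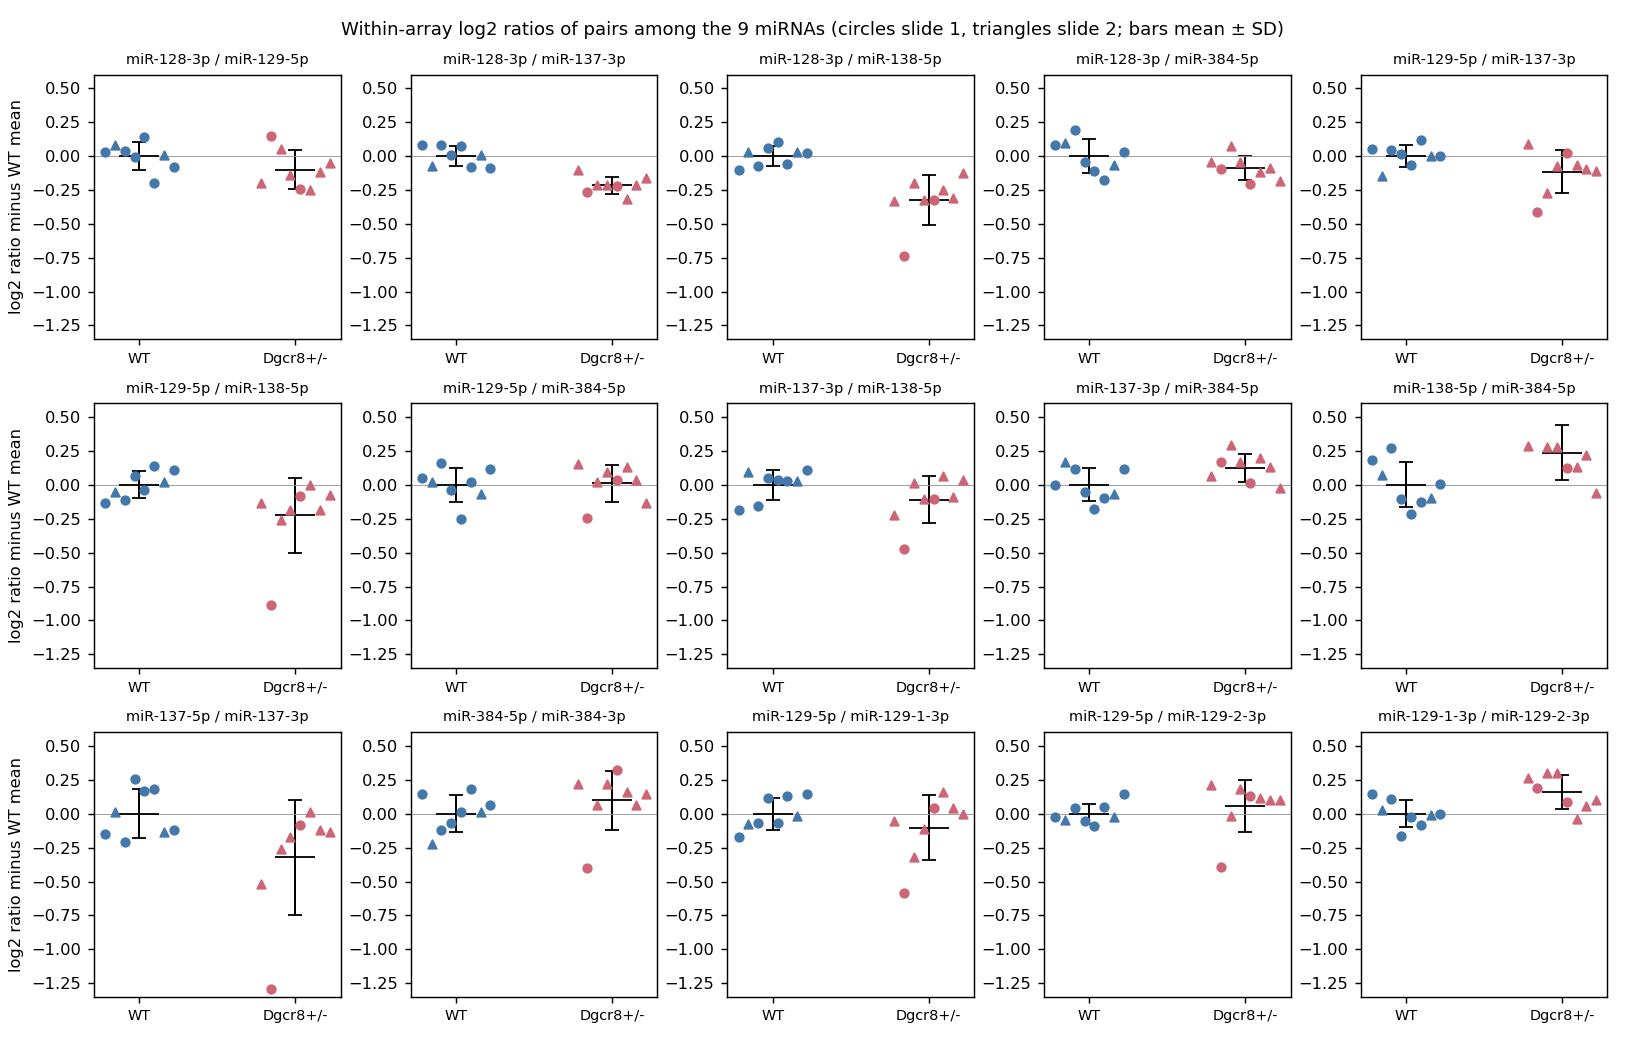
Within-array log2 ratio of each pair of the 9 miRNAs that was compared, minus the WT mean (vertical axis, the same in each panel), in 8 WT and 8 Dgcr8+/- mice; each point is 1 mouse, circles are slide 1, triangles are slide 2, and black bars give the mean ± SD. The first 10 panels are pairs of families and the last 5 are pairs of arms or copies; the genotypes are apart for miR-128-3p to miR-137-3p and miR-128-3p to miR-138-5p. In the panel of miR-138-5p to miR-384-5p, the point of Dgcr8+/- replicate 2 lies above the axis and is not shown.

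Likeness to other miRNAs was described over the 16 arrays after the genotype means were taken away, with no test. MiR-138-5p was most like miR-124-3p, an abundant neuronal miRNA (Pearson's r = 0.87, Spearman's rho = 0.68). MiR-137-3p was most like miR-1298-5p (r = 0.88, rho = 0.87), miR-129-5p most like miR-383-5p (r = 0.94, rho = 0.81) and miR-384-5p most like miR-382-5p (r = 0.88, rho = 0.84). MiR-128-3p was most like miR-148b-3p (r = 0.88, rho = 0.54), miR-137-5p most like miR-7a-2-3p (r = 0.96, rho = 0.90) and miR-384-3p most like miR-135a-5p (r = 0.77, rho = 0.75). MiR-129-1-3p was most like miR-365-3p (r = 0.78, rho = 0.74) and miR-129-2-3p most like miR-323-3p (r = 0.67, rho = 0.60). When the 2 arrays farthest from the median were left out, Dgcr8+/- replicate 2 among them for 7 of the 9 miRNAs, r fell to 0.47 for miR-129-2-3p, to 0.52 for miR-128-3p and to 0.56 for miR-138-5p, and it was 0.78 for miR-137-3p, 0.75 for miR-129-5p and 0.80 for miR-384-5p. Among the 9 themselves, the 36 pairwise r ran from -0.78 to 0.77 with a median of 0.15, and without Dgcr8+/- replicate 2 from -0.57 to 0.69 with a median of 0.27.

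Other miRNAs known from neurons moved in both directions after quantile normalization, with only falls past the threshold. They were mostly lower on the signal as scanned. Of 10 such miRNAs, all tested, 3 were lower in Dgcr8+/- mice and 0 were higher after quantile normalization (limma, with 3 and 1 at an unadjusted p below 0.05, and 3 and 0 by the methods' t-test), beside 27.9% and 28.3% of the 495: miR-153-3p at -0.34 (adjusted p = 0.000155 from limma), miR-7a-5p at -0.30 (adjusted p = 0.00753 from limma) and miR-218-5p at -0.15 (adjusted p = 0.0187 from limma). The median log2 fold change of the 10 was 0.01, and the largest rise was that of miR-212-3p, at 0.23 (SE 0.10, limma adjusted p = 0.0528). MiR-124-3p was at 0.07 and miR-9-5p, which neural progenitors also express, was at 0.03, and neither passed the test (adjusted p = 0.217 and 0.522 from limma). The summed signal of the 10 ran from 44415 to 48600 signal units in WT mice and from 45786 to 48646 in Dgcr8+/- mice, and that of the 9 miRNAs described here ran from 19500 to 20978 and from 19081 to 21061. Both ranges overlapped between genotypes almost in full. The sums were taken after quantile normalization, which sets all arrays to 1 common distribution. Their overlap therefore cannot show whether the amount of these miRNAs differed. With no normalization between arrays, 9 of the 10 were lower, beside 59.2% of the 495, and their median was -0.47.

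Markers of the other cells of the wall moved in both directions after quantile normalization, beside 27.9% of the 495 lower and 28.3% higher. The 5 tested miRNAs of multiciliated cells had a median of 0.29, and 0 passed the test from limma (1 at an unadjusted p below 0.05, and 0 by the methods' t-test after adjustment), with a summed signal of 541 to 1286 in WT mice and 868 to 1568 in Dgcr8+/- mice. Of 2 choroid plexus miRNAs 1 was lower, with sums of 533 to 733 against 403 to 624, and of 4 oligodendrocyte miRNAs 1 was higher, with sums of 8025 to 12086 against 8187 to 11322. Of 4 blood vessel miRNAs 2 were higher, with sums of 1646 to 1815 against 1588 to 1927, and of 5 tested miRNAs of microglia and immune cells 1 was lower and 1 was higher, with sums of 385 to 440 against 372 to 443. The 2 tested miRNAs of red blood cells did not pass the test, with sums of 519 to 873 against 462 to 715, nor did the 3 tested of liver and muscle (limma, 0 of both lists with an unadjusted p under 0.05, and 0 with the methods' t-test), with sums of 105 to 136 against 79.6 to 137. With no normalization between arrays, 0 of 5 miRNAs of multiciliated cells were lower (median -0.19), beside 59.2% of the 495. Lower there were 2 of 2 of choroid plexus, 2 of 4 of oligodendrocytes and 2 of 4 of blood vessels. So were 5 of 5 of microglia and immune cells, 2 of 2 of red blood cells and 2 of 3 of liver and muscle. The part of these cell types in the changes of miR-138-5p and miR-128-3p was not tested.

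**Figure D5:**
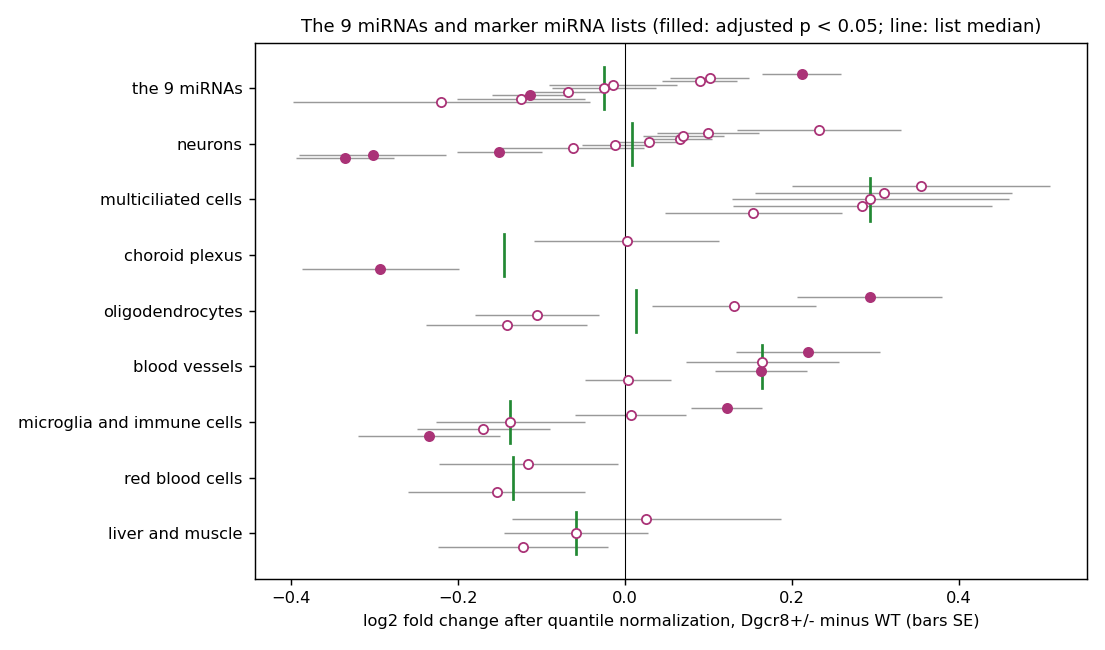
Log2 fold change after quantile normalization, Dgcr8+/- minus WT (horizontal axis), of the 9 miRNAs and of the tested miRNAs of each marker list, with standard errors from limma; filled points passed an adjusted p of 0.05 and green lines are list medians. The medians of the 9 miRNAs (-0.03) and of the other neuronal miRNAs (0.01) lie near 0, and that of the multiciliated cell miRNAs is 0.29 with no filled point.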

How the data were processed

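Total RNA of the LV wall of 16 mice was measured on 1-colour Agilent mouse miRNA arrays. The authors deposited scanner files, 1 for each array, in which the intensity values were background-corrected by Feature Extraction (version 10.5.1.1 in the submitters' processing notes, 10.7.3.1 per the file headers) and not normalized between arrays. The deposited table of total gene signal, also an intensity, equals that of the scanner files and served as an alternative. No spot was saturated.

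Control spots and spots marked as outliers were left out, a mean was taken over the spots of each of 4415 probes, and these means were quantile-normalized as the study's methods state. The mean over the probes of a miRNA, raised to a floor of 1 signal unit, was log2-transformed. Genotypes were compared with limma 3.58.1 in R 4.3.3 (lmFit and eBayes, 2-sided, Benjamini-Hochberg over 495 miRNAs), and within-array ratios with 2-sided exact permutation tests. The fits were tested on simulated data. The replicate numbers did not pair the samples. Groups came from the labels, which call the mice biological replicates. The number of arrays limits the precision.

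The named miRNAs are the 9 members, the other arms of their hairpins, array miRNAs with the same seed, the miRNA most like each member, and marker lists written by hand. MiR-129b was added. Members and lists were chosen with earlier results of these data known. Alternatives covered the normalization, background, outlier spots, floor, filter, probe summary, test, slide, replicate block and each array left out.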

Additional observations from a re-analysis of the deposited data

Results flagged for a closer look

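In each genotype, the highest or lowest mouse was looked at for a gap to its nearest neighbour that was large against the range of the group (Dixon's test for 8 samples), over 30 groups of values. Chance flags about 1 in 20 groups, or 1.5 here, and 5 were found. The hybridisation spike-in probes of Dgcr8+/- replicate 2 were low, at 13.08 on the log2 scale, beside 14.30 to 14.52 for the rest of its genotype, and those of WT replicate 6 were high, at 15.44 against 14.34 to 14.67. The miR-138-5p signal of Dgcr8+/- replicate 2 was high after quantile normalization, at 11.99 against 11.69 to 11.80. The miR-128-3p signal of WT replicate 6 was low, at 13.02 against 13.11 to 13.18, and the miR-129-1-3p signal of WT replicate 1 was high, at 10.43 against 10.17 to 10.29. Without Dgcr8+/- replicate 2 and WT replicate 6 together, a choice made after the data were seen, 2 of the 9 miRNAs were lower and 2 were higher.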

How the results depend on the processing

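MiR-138-5p was higher and past the threshold in 32 of 35 alternatives and lower and past it in 1, that with no normalization between arrays. A further fit outside the 35, with no normalization and without Dgcr8+/- replicate 2, also had it lower and past the threshold (adjusted p = 0.0366 from limma). In all 16 fits that left out 1 mouse after quantile normalization, its log2 fold change was 0.18 to 0.23. MiR-138-5p missed the threshold when arrays were scaled to the 75th percentile of all probes, at 0.04 (adjusted p = 0.657 from limma), and to the labelling spike-in probes. MiR-128-3p passed in 18 of 35. With no normalization between arrays, 293 of the 495 miRNAs were lower and 0 higher, 9 of the 9 were lower and 0 higher, and 5 family pairs changed unequally. The direction turned there for miR-129-1-3p (-0.41), miR-137-3p (-0.42) and miR-138-5p (-0.32), and likewise with labelling spike-in scaling (-0.41, -0.41 and -0.31), under which 262 miRNAs were lower and 0 higher, 8 of the 9 were lower and 0 higher, and 5 family pairs differed. Without normalization and without Dgcr8+/- replicate 2, chosen after seeing the data, 290 miRNAs were lower and 0 higher, 9 of the 9 were lower and 0 higher, and the same 3 miRNAs were at -0.35, -0.32 and -0.25. No normalization and spike-in scaling moved the median of the 495 miRNAs to -0.39 and -0.38, from 0.04. Scaling to the 75th percentile of detected probes moved it to 0.14 and gave 126 lower and 210 higher, against 138 and 140 after quantile normalization, with 0 of the 9 lower, 2 higher and 5 family pairs. With the 75th percentile of all probes 0 of the 9 were lower and 0 higher (limma, with 5 family pairs). Cyclic loess gave 0 lower and 5 family pairs. The normexp correction of the median signal gave 2 higher and 1 pair of arms, and array weights gave 2 higher. The number lower was 0 with outlier spots kept, with no filter on dim miRNAs, and with the deposited total gene signal, where 1 family pair differed. With the replicate block it was also 0 (miR-128-3p, adjusted p = 0.0694 from limma). Same-numbered mice correlated at r of -0.14 to 0.50, above 0.1 for 5 of 8 numbers, and 3 correlated best with their own number, so the block does not rest on pairs known from the design. Leaving out 1 mouse gave 130 to 151 miRNAs lower and 126 to 170 higher, 0 to 2 of the 9 lower and 1 to 2 higher, 0 to 3 pairs of arms and 2 to 5 family pairs. Without Dgcr8+/- replicate 2 and WT replicate 6, chosen after seeing the data, 2 of the 9 were lower and 2 higher, with 2 pairs of arms. The cause of these shifts was not tested. Signals near background limit miR-137-5p and miR-384-3p.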
